A study of Mus musculus with 2 samples.

Results

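Dividing macrophages were described in cells sorted from infarcted mouse hearts. They were selected on their transcripts. A barcode was taken as a cycling macrophage when it had at least 5000 UMIs (unique molecular identifiers, each standing for 1 captured RNA molecule), at most 10% mitochondrial UMIs, at least 0.4% of its UMIs from *Malat1*, at least 2 UMIs of the macrophage receptor gene *Csf1r*, and at least 0.05% of its UMIs from *Top2a*, *Mki67*, *Birc5*, *Ube2c* and *Pclaf* together. Barcodes with 0.15% or more from the neutrophil genes *S100a8*, *S100a9*, *Retnlg*, *Csf3r* and *G0s2*, or with 0.3% or more from *Col1a1*, *Col1a2*, *Col3a1* and *Dcn*, were left out. The rule took 305 of 18770 deposited barcodes, 161 of them from WT and 144 from the library labelled CD40 KO. The 4546 barcodes that met every limit except that on the 5 markers, 2822 and 1724, are called other macrophages below.

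The series holds 2 single-cell RNA libraries made with a 3′ counting kit, 1 from WT mice and 1 from mice with a knockout of CD40, a receptor of the TNF receptor family. All hearts were taken 3 days after myocardial infarction, and cells positive for CD45, CD11b and CD64 were sorted from the infarct with its border zone. The sources used here do not give age, sex, strain, the knockout allele or how many mice went into a library. A single library stands for each genotype, so nothing here is checked by replicates or tested: each ratio below compares these libraries or cells within 1 library, and every interval is a 95% exact interval that covers counting error only.

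Macrophages of the injured heart descend from resident cells and from blood monocytes, and both can divide in the tissue, with CSF1 receptor signalling as a main driver. In a dividing cell E2F factors turn on the genes of DNA replication as the cell passes from G1 into S phase. The MuvB complex with B-MYB and FOXM1 then turns on the genes of mitosis in G2 and M phase, many of whose promoters carry a CHR element (cell cycle genes homology region) and CCAAT boxes, the binding sites of NF-Y.

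The 5 markers that chose the cells made up 0.0505% to 0.421% of the UMIs of a WT member, with a median of 0.133%, and 0.0507% to 0.370% in the CD40 KO-labelled library, with a median of 0.135%. Just inside the limit, from 0.05% to 0.06%, lay 17 and 15 members, and just outside, from 0.04% to 0.05%, lay 19 and 31 other macrophages. The limit therefore cuts a range of values and does not separate 2 groups of cells. No UMI of the 5 genes was seen in 70.8% of the other macrophages in WT and in 48.3% in the CD40 KO-labelled library. In sum the markers reached 1396 UMIs per 1e+06 (CPM) in cycling and 36.5 CPM in other macrophages of WT, and 1449 and 66.5 CPM in the other library. Barcodes with the content of neutrophils, which do not divide, were taken for comparison. They held 7 marker UMIs, or 14.8 CPM (5.93 to 30.4), over 159 WT barcodes. In the other library 40 such barcodes held 2, or 15.3 CPM (1.86 to 55.4). Their median depths, 2359 and 2777 UMIs, were below those of the macrophages, so this level does not carry over to macrophages. Whether these UMIs came from free RNA was not tested. Of these neutrophil barcodes 1 of 159 and 0 of 40 passed the marker limit.

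Of the markers, *Top2a*, the topoisomerase that untangles chromosomes, stood at 309 CPM in cycling and 8.49 CPM in other macrophages of WT, and at 352 and 12.8 CPM in the CD40 KO-labelled library. *Mki67*, which coats mitotic chromosomes, stood at 254 and 11.2, and at 230.4 and 14.1 CPM. *Birc5*, survivin of the chromosomal passenger complex, stood at 314 and 7.46, and at 289 and 17.5 CPM. *Ube2c* stood at 296 and 3.38, and at 290.3 and 8.76 CPM, and *Pclaf* at 223 and 5.92, and at 287 and 13.3 CPM. Each marker was higher in the other macrophages of the CD40 KO-labelled library than in those of WT, while within the cycling macrophages their log2 ratios between the libraries lay between −0.14 and 0.36. Members of both libraries had to pass the same limit on the sum of these markers, so the latter ratios are not independent of the selection. *Csf1r*, which the rule also used, stood at 230.4 and 259.5 CPM in cycling and other macrophages of WT and at 242 and 292 CPM in the other library. The median share of *Malat1* was 0.629% against 0.760% and 0.666% against 0.818%, and that of mitochondrial UMIs 2.40% against 2.35% and 2.67% against 2.50%.

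Cycling macrophages carried more RNA than the others. Their median was 28601 UMIs against 15789.5 in WT, a ratio of 1.81, and 39129 against 17616 in the CD40 KO-labelled library, a ratio of 2.22. The median number of genes detected was 5533 against 3999.5 and 6324.5 against 4189. With every barcode thinned to 5000 UMIs the gene numbers were 2211 against 2121 and 2248 against 2126.5. The barcode with most UMIs held 1.73% and 2.03% of the UMIs summed over the members, and no barcode sequence was shared between the members of both libraries, against 23 shared over all barcodes. Doublet scores by Scrublet placed 18.0% of the WT members among the barcodes of highest score, against 13.4% of other macrophages, and 11.1% against 11.1% in the other library. These barcodes were kept.

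The transcripts of the sorted proteins and of macrophages in general were present in the members. *Ptprc*, which encodes CD45, stood at 622 and 437 CPM in the cycling macrophages of WT and of the CD40 KO-labelled library, *Itgam* (CD11b) at 149.8 and 132, and *Fcgr1* (CD64) at 159 and 113. *Adgre1*, the F4/80 antigen, stood at 280.5 and 191 CPM, and *C1qa*, a subunit of complement C1q, at 2148 and 1496 CPM. Of 17 macrophage identity genes none was 1.5-fold higher or lower in cycling than in other macrophages in both libraries, and their median log2 ratio was −0.10 and −0.23. Markers of other cell types were low: 10 T and NK cell genes summed to 5.99 and 7.14 CPM with *Cd3e* and *Trbc2* at 0, 9 fibroblast genes to 13.5 and 39.7 CPM with *Pdgfra* at 0, and 8 cardiomyocyte genes to 14.1 and 10.3 CPM with *Myh6* at 0. The 9 dendritic cell genes summed to 52.4 and 61.3 CPM, against 38.4 and 56.0 in other macrophages, with *Siglech* at 0. The 11 neutrophil genes, 5 of which the rule limits, summed to 283 and 128 CPM, against 268 and 204 in other macrophages.

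*Cd40*, the targeted gene, was counted at 17.6 CPM (14.2 to 21.6) in the cycling macrophages of WT and at 16.5 CPM (13.4 to 20.2) in those of the CD40 KO-labelled library. The sources used here do not name the deleted part of the gene, so a count of 3′ ends does not check the label.

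The promoters of the 5 markers and of 2 genes that the rule did not use are shown because they hold the elements named above in different combinations: the mitotic kinase gene *Cdk1*, and *Mcm6*, a subunit of the replicative helicase. Each runs 5′ to 3′ on the gene's strand from 250 bases before to 50 bases after the annotated start, in RefSeq on build GRCm38.p6. Capitals mark every match, on either strand, to CHR (TTTGAA or TTTAAA), the CCAAT box (CCAAT) and 3 forms of the E2F site (TTTCGCGC, TTTGGCGC and TTTCCCGC). *Top2a* lies at chr11:99024140-99024439 (minus strand), *Mki67* at chr7:135716330-135716629 (minus strand), *Birc5* at chr11:117848987-117849286 (plus strand), *Ube2c* at chr2:164769679-164769978 (plus strand), *Pclaf* at chr9:65890073-65890372 (plus strand), *Cdk1* at chr10:69352863-69353162 (minus strand) and *Mcm6* at chr1:128359656-128359955 (minus strand).
Top2a: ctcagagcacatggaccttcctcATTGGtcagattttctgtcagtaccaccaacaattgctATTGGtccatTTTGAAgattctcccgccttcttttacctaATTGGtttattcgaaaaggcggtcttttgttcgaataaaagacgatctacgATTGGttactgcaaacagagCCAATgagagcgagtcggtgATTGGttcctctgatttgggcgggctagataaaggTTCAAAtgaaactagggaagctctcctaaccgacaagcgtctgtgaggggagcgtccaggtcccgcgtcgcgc
Mki67: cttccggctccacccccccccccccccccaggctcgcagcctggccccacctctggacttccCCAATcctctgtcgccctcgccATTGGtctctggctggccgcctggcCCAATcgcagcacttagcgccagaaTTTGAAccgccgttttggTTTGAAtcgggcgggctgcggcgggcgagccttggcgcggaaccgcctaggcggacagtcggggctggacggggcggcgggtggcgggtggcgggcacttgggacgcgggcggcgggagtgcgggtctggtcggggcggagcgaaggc
Birc5: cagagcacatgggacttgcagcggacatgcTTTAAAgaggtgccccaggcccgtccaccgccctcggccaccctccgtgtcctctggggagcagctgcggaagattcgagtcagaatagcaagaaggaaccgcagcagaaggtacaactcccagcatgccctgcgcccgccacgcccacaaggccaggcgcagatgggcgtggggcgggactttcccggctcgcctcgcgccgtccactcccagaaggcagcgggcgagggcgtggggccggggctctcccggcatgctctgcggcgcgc
Ube2c: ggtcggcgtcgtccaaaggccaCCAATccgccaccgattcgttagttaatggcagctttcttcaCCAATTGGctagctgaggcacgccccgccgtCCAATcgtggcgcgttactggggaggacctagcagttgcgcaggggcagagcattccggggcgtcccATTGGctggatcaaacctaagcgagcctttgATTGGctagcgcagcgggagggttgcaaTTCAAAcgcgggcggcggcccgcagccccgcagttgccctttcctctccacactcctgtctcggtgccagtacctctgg
Pclaf: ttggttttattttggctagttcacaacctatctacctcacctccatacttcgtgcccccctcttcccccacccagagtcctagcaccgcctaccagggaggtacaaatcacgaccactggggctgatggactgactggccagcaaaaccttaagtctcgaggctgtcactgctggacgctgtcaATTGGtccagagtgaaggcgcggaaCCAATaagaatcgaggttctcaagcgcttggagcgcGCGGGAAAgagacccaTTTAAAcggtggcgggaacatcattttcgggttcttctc
Cdk1: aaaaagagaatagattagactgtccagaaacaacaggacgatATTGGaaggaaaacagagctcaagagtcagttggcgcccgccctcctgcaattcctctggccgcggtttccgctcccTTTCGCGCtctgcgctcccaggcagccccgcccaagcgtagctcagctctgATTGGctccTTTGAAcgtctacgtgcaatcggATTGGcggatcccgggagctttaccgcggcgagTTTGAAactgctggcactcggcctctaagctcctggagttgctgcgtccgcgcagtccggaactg
Mcm6: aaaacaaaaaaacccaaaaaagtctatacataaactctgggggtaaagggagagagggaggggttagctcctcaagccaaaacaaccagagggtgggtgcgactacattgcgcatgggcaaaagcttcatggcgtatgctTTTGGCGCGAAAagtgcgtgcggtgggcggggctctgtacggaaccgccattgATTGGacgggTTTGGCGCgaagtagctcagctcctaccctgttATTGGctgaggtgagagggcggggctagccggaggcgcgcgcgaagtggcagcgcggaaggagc

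The promoters of all 5 markers held a CHR match, those of *Top2a*, *Mki67*, *Ube2c* and *Pclaf* also held CCAAT boxes, and that of *Pclaf*, which encodes a clamp-binding replication factor, also held an E2F match. The *Cdk1* promoter held all 3 elements, with CHR matches 71 and 15 bases before the start, 3 CCAAT boxes and an E2F match 131 bases before it. The *Mcm6* promoter held 3 E2F matches, of which those 110 and 106 bases before the start overlap, and no CHR match. Over the promoters of the G2, mitosis, kinetochore and spindle genes listed for this description, 62.7% of 102 held a CHR match, 65.7% a CCAAT box and 46.1% both. Over all 32851 promoters of the table these shares were 27.6%, 37.4% and 10.7%. An E2F match was present in 33.3% of 63 promoters of the replication genes and in 1.84% of all promoters. Over the 8087 promoters of genes measured in these cells, as defined below, an E2F match was present in 3.65%. In the same 8087 a CHR match was present in 19.2%, a CCAAT box in 36.9% and both in 7.41%. These are matches of letters in a window, not measured binding, and the lists were made from genes known for these roles.

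A gene was measured when the 4 sums (2 libraries, cycling and other macrophages) averaged 10 CPM or more. Of 7842 such genes 519 (6.62%) were at least 1.5-fold higher in cycling than in other macrophages in both libraries and 77 (0.982%) at least 1.5-fold lower. The selection on the 5 markers used this contrast, so these counts and the levels that follow are a description of the selected cells. No gene passed the fold in opposite directions in the 2 libraries. Of 340 cell cycle genes with a row in the tables, 261 were measured, 206 were higher and 2 were lower. A gene with low counts can reach the floor through the cycling cells alone, so the share of measured members that were higher has this built in. Median log2 ratios over all measured genes were 0.03 in WT and 0.06 in the CD40 KO-labelled library.

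Most measured genes that prepare and copy the DNA were higher. All 14 measured of 18 licensing genes, which load the helicase on replication origins, passed the fold in both libraries, with a median log2 ratio of 1.66 and 1.76. *Mcm6* stood at 72.1 CPM in cycling and 24 CPM in other macrophages of WT, and at 109 and 29.96 CPM in the CD40 KO-labelled library. Among the measured ones *Mcm10*, needed to activate the helicase, and *Mcm7*, a helicase subunit, had the highest WT ratios, 2.92 (2.53 to 3.31) and 2.43, with 2.67 (2.34 to 3.00) and 1.99 in the other library. The lowest were those of *Cdt1*, a loading factor, 0.61 and 0.91, and of *Gins4*, 0.80 and 1.06. At the fork 17 of 20 measured genes of 23 were higher. *Pcna*, the sliding clamp, stood at 209.7 against 119.9 CPM and 261 against 127 CPM, a ratio smaller than that of *Pole*, a catalytic subunit of DNA polymerase epsilon (3.11 and 2.71) or of the clamp loader *Rfc5* (2.33 and 2.26). Lowest were *Top1*, the type I topoisomerase, with −0.18 and −0.34, and *Rnaseh2a*, with 0.54 and 0.67.

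Of 18 measured genes of nucleotide supply, of 20, 10 were higher and 1 lower. *Tk1* and *Tyms*, the makers of dTMP, had the highest ratios of the list: *Tk1* stood at 41.8 against 3.11 CPM and 73.1 against 7.8 CPM, and *Tyms* at 45.4 against 3.83 CPM and 55.4 against 6.94 CPM. *Rrm1*, the large subunit of ribonucleotide reductase, followed with 2.72 and 3.03. The gene that was lower, *Samhd1*, encodes an enzyme that breaks down dNTPs: it stood at 169.7 CPM in cycling and 255 CPM in other macrophages of WT, and at 233 and 463 CPM in the other library. Genes of purine synthesis differed less, with *Impdh1* at 0.06 and 0.02, *Atic* at 0.29 and 0.84 and *Ppat* at 0.29 and 1.14.

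Replication histones were measured through 14 of 32 genes, and 11 of these were higher. The H2A genes *Hist1h2ab* (5.62 and 4.77) and *Hist1h2ap* (5.23 and 4.21) had the highest ratios. *Hist1h1b*, a linker histone gene, rose from 3.26 to 102 CPM in WT and from 5.01 to 118 CPM in the CD40 KO-labelled library, and *Hist1h2ae* from 2.41 to 47.7 and from 7.62 to 129 CPM. *Hist1h1c*, a linker histone also made outside S phase, had ratios of 0.59 and −0.24, and *Hist3h2a* of −0.15 and −0.21. Most of these messages end without a poly(A) tail, which the 3′ kit primes from, and the genes are near-identical copies, so the level of each is uncertain. Of 12 measured variant histones and chaperones, 5 were higher, among them *H2afx* (3.12 and 3.02) and the chaperone *Asf1b* (3.59 and 3.603), while *H3f3a* and *H3f3b*, the genes of the replacement histone H3, had ratios of 0.06 and −0.07, and of 0.29 and −0.03.

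Cyclins and their kinases split by phase of action. Of 15 measured genes of 18, 12 were higher. *Ccna2*, the S and G2 cyclin, had the highest ratio in WT, with 90.7 against 1.37 CPM, and stood at 110.1 against 3.62 CPM in the other library. *Ccnb1*, the mitotic cyclin, stood at 64.8 against 1.08 and 82.4 against 2.44 CPM. *Ccnd1*, the G1 cyclin that answers to growth factors, stood at 101 against 62.5 and 118 against 69.3 CPM. *Ccnd2* had ratios of 0.25 and 0.04, *Ccnd3* of 0.33 and −0.44, and *Cdk6*, a kinase of the D cyclins, of 0.07 and 0.12. The cyclins *Ccna2* and *Ccnb1* thus differed far more between members and other macrophages than the D cyclins of G1.

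The brakes of the cycle were mixed. Of 13 measured inhibitors and pocket proteins of 16, 4 were higher: *Cdkn2c* (59.3 against 4.69 CPM and 59.2 against 5.61 CPM) and *Cdkn2d*, inhibitors of CDK4 and CDK6, the phosphatase *Cdkn3* (4.54 and 3.25), and the pocket protein *Rbl1*. *Cdkn1a*, the p21 inhibitor, stood at 332 against 350.3 CPM in WT and 296 against 411 CPM in the CD40 KO-labelled library. Of 12 measured p53 targets of 15 none passed the fold in both libraries, with medians of −0.07 and −0.01. The lowest WT ratios of the inhibitor list were those of the stress gene *Gadd45a*, −0.47 and −1.03, and of *Btg1*, which restrains growth, −0.46 and −0.71.

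Among 14 measured transcription factors of 22, 8 were higher and 1 lower. *Foxm1*, the mitotic factor, stood at 25.3 against 0.719 CPM and 26.8 against 1.71 CPM, and *Mybl2*, which encodes B-MYB, at 13.7 against 1.26 and 25.3 against 2.74 CPM. *E2f1* moved less, with 0.88 and 0.96, and *Myc* stood at 15.3 against 13 and 25.9 against 16.9 CPM. *Mxi1*, a MAX partner that opposes MYC, was lower, with 131 against 205 and 242 against 409 CPM, and the related *Mxd1* had ratios of −0.50 and −0.76.

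All 22 measured kinetochore and checkpoint genes of 25 and all 22 measured spindle and cytokinesis genes of 28 were higher, with median log2 ratios of 3.38 and 2.97 for the former and 4.61 and 4.18 for the latter. *Plk1*, the mitotic kinase, stood at 36.5 against 0.504 CPM and 40.6 against 1.66 CPM, and *Knl1*, the scaffold of the kinetochore, at 50.5 against 1.58 and 51.4 against 3.3 CPM. *Pimreg* had ratios of 5.88 and 5.13, and the kinetochore genes *Ska1* and *Nuf2* of 5.196 and 4.51, and of 5.03 and 4.83. The lowest WT ratios of the spindle list were those of tubulins, which all cells use and which share sequence with close copies: *Tuba1b* stood at 749 against 239 and 863 against 222 CPM, and *Tubb4b* had ratios of 1.66 and 1.94. In the kinetochore list the lowest were the checkpoint genes *Mad1l1* (0.82 and 1.26) and *Bub3* (0.88 and 1.38). Condensin and cohesin gave 11 of 15 measured, led by *Esco2*, the cohesin acetyltransferase of S phase (5.89 and 4.98), and *Ncapg*, a condensin subunit (4.98 and 4.23), while securin, *Pttg1*, and the cohesin subunit *Stag1* had ratios of 0.19 and −0.03, and of 0.20 and 0.23. In the group of the anaphase-promoting complex 8 of 14 measured were higher: *Fbxo5*, its inhibitor, had ratios of 3.76 and 3.73, and *Trip13*, a checkpoint ATPase, of 3.27 and 3.33. The constitutive subunits *Cdc26* and *Anapc13* had 0.09 and 0.02, and 0.18 and 0.06. Of the damage response 7 of 22 genes were measured and 4 were higher, with *Brca1* (3.04 and 3.13) and *Rad18* (1.37 and 1.41) at the top and *Trp53bp1* (0.21 and 0.28) and the kinase *Atr* (0.41 and 0.53) at the bottom.

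Some genes of growth outside the cycle itself were described too. Of 19 measured genes of a list of the nuclear envelope and nuclear transport 14 were higher, among them *Ran*. That list also holds *Hmgb1*, which encodes a chromatin protein and was higher too. Of 18 measured genes of ribosome biogenesis only *Dkc1*, a subunit of the pseudouridine synthase, passed in both libraries, and the median was 0.19 in WT and 0.66 in the CD40 KO-labelled library. *Nolc1* and *Nop58*, 2 nucleolar proteins, stood at 47.9 against 37.8 and 49.9 against 36.8 CPM in WT, and at 90.7 against 40.1 and 100.3 against 43.2 CPM in the other library. The subunits of oxidative phosphorylation had medians of 0.00 and 0.21, with none of 28 past the fold.

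**Figure D1:**
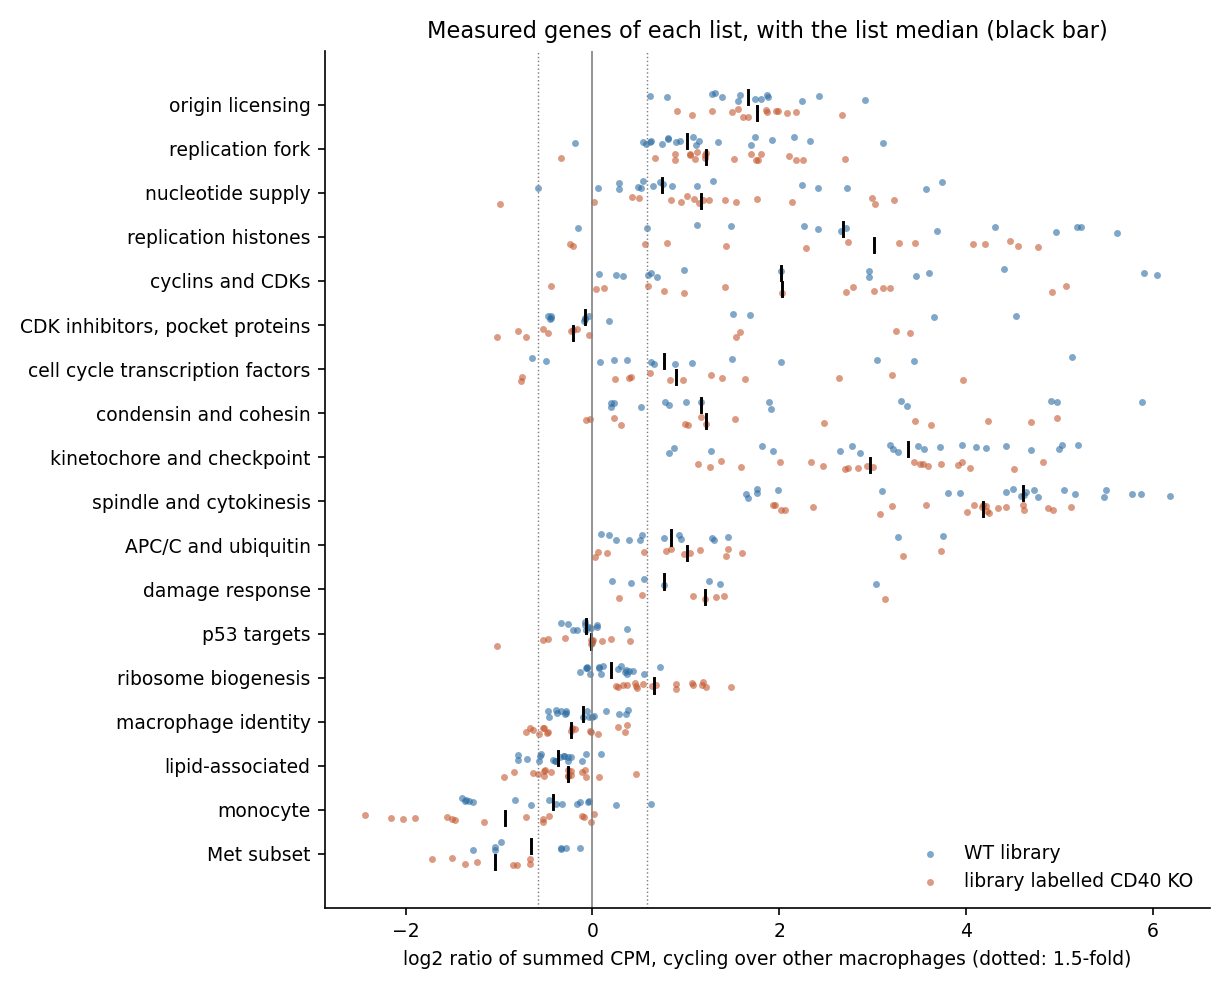
Log2 ratio of summed CPM in cycling over other macrophages for each measured gene of 18 lists (1 dot per gene and library; blue WT, orange the CD40 KO-labelled library; black bars, list medians; dotted lines, 1.5-fold). Of these lists, spindle genes have the highest median in both libraries (4.61 and 4.18), p53 targets and macrophage identity genes lie around 0, and monocyte and Met subset genes lie to the left.

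Among genes with a mean of 50 CPM or more, the 12 highest ratios all belonged to the cell cycle lists: *Ube2c*, *Cenpf*, *Ccna2*, *Top2a*, *Prc1*, *Hist1h1b*, *Pclaf*, *Nusap1*, *Cdk1*, *Tpx2*, *Racgap1* and *Cdca3*. Of these *Ube2c*, *Top2a* and *Pclaf* are markers of the rule, so their places follow from the selection. *Cdk1* stood at 114 against 3.38 CPM and 130.3 against 6.57 CPM. Outside the lists 313 genes were at least 1.5-fold higher in both libraries, and the following were chosen from them after their values were seen. *Diaph3*, a formin of the contractile ring, stood at 139.8 against 10.8 and 201 against 18.9 CPM. *Pbk* and *Shcbp1*, mitotic genes absent from the lists, had ratios of 6.19 and 4.95, and of 5.71 and 4.72. Some genes with no known mitotic role were among them. The fractalkine receptor gene *Cx3cr1* stood at 140.1 against 68.7 CPM in WT and 108 against 65.1 CPM in the CD40 KO-labelled library. *Fcrls* stood at 232 against 119 and 157 against 96.6 CPM, and the lectin gene *Mgl2* at 19.5 against 5.02 and 42.1 against 14.8 CPM. *Cxcl10*, a chemokine of the interferon response, stood at 205 against 89 and 233 against 109 CPM, with 22.1% and 25.7% of its UMIs in the 3 members that held most of them. It was the only measured gene of 14 in the interferon list that passed.

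Several genes of blood monocytes were lower in cycling macrophages. Of 16 measured monocyte genes 7 were at least 1.5-fold lower in both libraries and none was higher, with medians of −0.42 and −0.93. *Ly6c2*, the surface marker of inflammatory monocytes, stood at 28.8 CPM in cycling and 73.6 CPM in other macrophages of WT, and at 36.1 and 195 CPM in the CD40 KO-labelled library. *Plac8* stood at 157 against 393 and 179 against 796 CPM, *Chil3* at 59.2 against 155 and 86.6 against 255 CPM, and *Vcan*, the versican gene, at 12.8 against 33 and 26.8 against 109.7 CPM. *Ccr2*, the receptor that brings monocytes into tissue, had smaller ratios, −0.39 and −0.71, and *S100a4* stood near 0.

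The macrophage subset that expresses *Met*, the receptor of hepatocyte growth factor, was described by 8 genes, and 4 of them were lower in both libraries. *Met* stood at 35.6 against 69.9 and 65.5 against 168 CPM, *Plcb1* at 62.8 against 129 and 132 against 434 CPM, and *Thbs1*, thrombospondin 1, at 265 against 642 and 511 against 1447 CPM. *Vegfa* stood at 43.9 against 90.7 and 132 against 231 CPM. These genes and the monocyte genes fill 7 of the 12 lowest places at a mean of 50 CPM or more, the others being *Olr1*, *Gab1*, *Fabp4*, *Kdm7a* and *Cxcl3*. After thinning to 5000 UMIs with the limits applied anew, which left 59 and 54 members, the ratio of *Gab1* in the CD40 KO-labelled library was −0.26. Of 18 genes of lipid-associated macrophages 2 were lower, the fatty acid binding proteins *Fabp4* (201 against 349 and 43.2 against 83.4 CPM) and *Fabp5*. After the same thinning *Fabp4* no longer passed the fold, with −0.35 and −0.0067. Nor did it pass in the CD40 KO-labelled library at a marker limit of 0.03%, with −0.25. *Gpnmb* had ratios of −0.56 and −0.58. Of 27 measured genes of efferocytosis, the uptake of dead cells, 2 were lower, *Thbs1* and the scavenger receptor *Olr1*, and the C1q subunits had ratios between 0.27 and 0.38. None of 31 lysosomal genes passed the fold in both libraries, with medians of −0.20 and −0.21.

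Signalling genes differed in few members. Of 15 measured genes of the CSF1 pathway and of growth factors 1 was higher, *Pdgfb* (32.5 against 20.8 and 55.2 against 29.9 CPM), and 2 were lower, *Met* and *Vegfa*. Of 16 measured inflammatory genes only the chemokine *Cxcl3* was lower, at 82.5 against 135 and 284 against 547 CPM. None of 24 genes of CD40 signalling, of 19 measured immediate early genes or of 8 measured MHC class II genes passed the fold in both libraries.

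The same cells can be described by their place among all macrophages of a library. The macrophages of each library were put in order by the share of their UMIs from a state list and split into 4 groups of equal size. By the Met subset list, cycling macrophages made up 10.6% (8.47 to 13.02) of the lowest group in WT, then 5.64%, 4.42% and 0.938% (0.378 to 1.92) of the highest. In the CD40 KO-labelled library the shares were 20.3% (16.8 to 24.3), 7.07%, 3.43% and 0 of 467 barcodes, with an exact upper limit of 0.787% (3 counts of the total would be 0.642%). By the monocyte list they were 9.38%, 6.71%, 4.16% and 1.34% in WT and 17.6%, 9.64%, 3.21% and 0.428% in the other library. Each step down in these 2 lists was a step up in the share of cycling cells. Among barcodes of at least 20000 UMIs, the Met list gave 20.7%, 10.9%, 8.19% and 2.72% in WT and 37.0%, 12.8%, 5.02% and 1.82% in the other library, and with list shares taken from 5000 UMIs per barcode 11.3%, 6.67%, 3.13% and 1.31%, and 20.7%, 6.28%, 3.91% and 0.420%. The median depth was 15434, 18129, 19472 and 13329 UMIs from the lowest to the highest group in WT, and 18737, 19641, 23984 and 14460 UMIs in the other library.

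The monocyte list gave a less steep fall in these deep barcodes of WT, with 17.3%, 12.6%, 7.17% and 5.44%, and 26.9%, 16.9%, 10.5% and 2.27% in the other library.

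By the lipid-associated list the share fell from 8.71% to 2.55% in WT and lay between 9.64% and 5.78% in the CD40 KO-labelled library, where all 4 intervals overlapped. Among barcodes of at least 20000 UMIs it fell in both, from 21.1% (16.6 to 26.2) to 5.10% (2.88 to 8.28) in WT and from 26.9% (21.2 to 33.3) to 6.82% (3.87 to 10.996) in the other library. By the lysosome list it fell from 7.64% to 2.68% in WT, and was 11.8% in the lowest group and between 6.0% and 6.85% in the others of the second library, and among deep barcodes it fell from 19.0% to 4.42% and from 28.8% to 6.82%. The interferon list gave 4.69% to 5.76% in WT, with overlapping intervals, and 9.85%, 9.42%, 6.0% and 5.57% in the other library. The inflammatory list gave 3.75% to 6.43% in WT, with overlapping intervals, and fell from 11.3% (8.62 to 14.6) to 4.07% (2.47 to 6.28) in the other library. The MHC class II list gave 4.30% to 7.10% in WT and 5.35% to 10.5% in the other library, and the resident list, with *Lyve1*, *Folr2* and *Cd163*, 4.16% to 7.10% and 6.42% to 9.64%. Among deep barcodes the resident list gave a fall too, from 15.3% (11.4 to 19.9) to 7.48% (4.75 to 11.1) in WT and from 23.7% (18.3 to 29.9) to 7.73% (4.57 to 12.1) in the other library. The inflammatory list gave 12.2%, 7.85%, 10.9% and 11.6% among deep barcodes of WT and 23.3%, 15.5%, 8.68% and 9.09% in the other library. Along the lipid-associated list the direction was thus the same in both sets of barcodes, with a steeper fall among deep ones. For the resident list a fall in WT was clear only among deep barcodes. The Met subset and monocyte lists kept their direction.

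**Figure D2:**
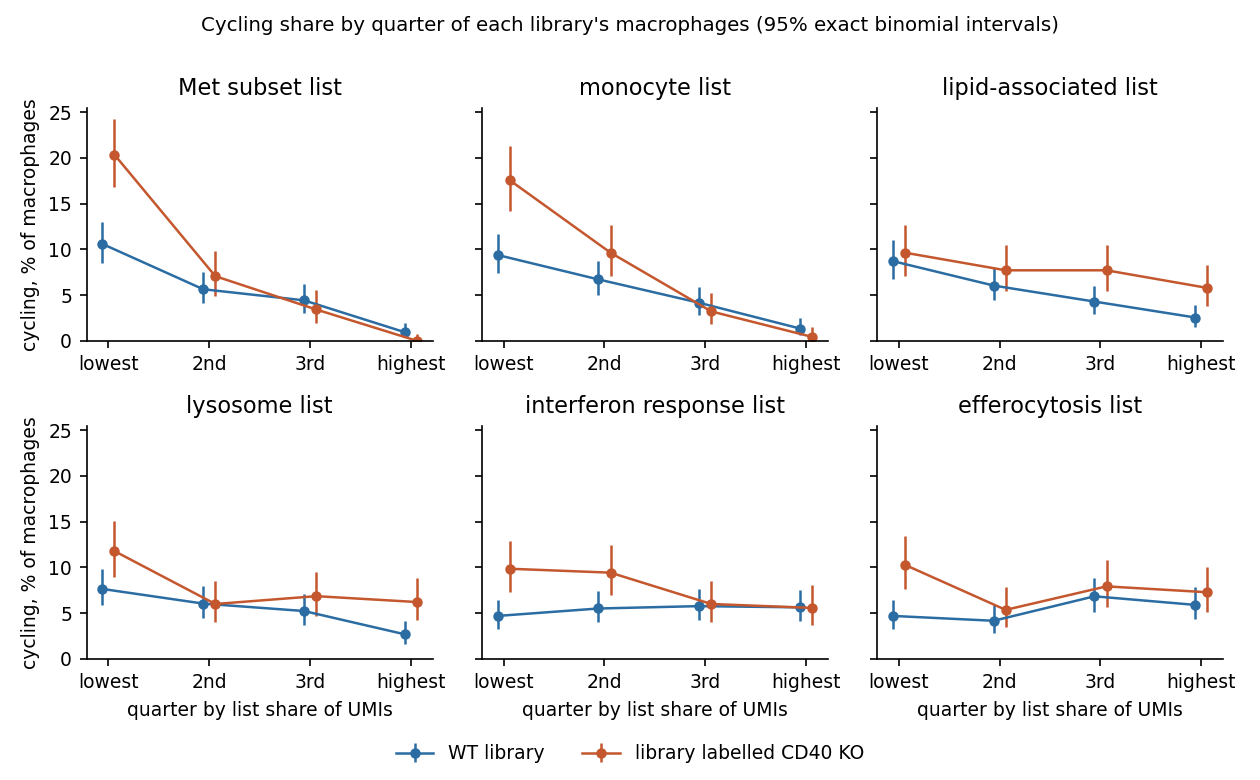
Share of cycling macrophages (y axis, percent, with 95% exact binomial intervals) in 4 equal groups of each library's macrophages, ordered by the share of UMIs from a state list (x axis). The share falls from 10.6% to 0.938% in WT and from 20.3% to 0 of 467 in the CD40 KO-labelled library along the Met subset list, and stays between 4.69% and 5.76% in WT along the interferon list.

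Most members had more UMIs of G2 and M phase genes than of S phase genes. For each member the UMIs of 28 S phase genes and of 38 G2 and M phase genes, none of them among the 5 markers, were counted. After thinning to 5000 UMIs, 16 of 156 WT members (10.3%, 5.98 to 16.1) and 13 of 141 members of the CD40 KO-labelled library (9.22%, 5.0 to 15.3) had more S than G2/M UMIs, with 5 and 3 ties left out. *Hmgb2*, a chromatin protein, carried much of the G2/M count, at 605 and 1076 CPM in the members and 147 and 302 CPM in other macrophages: without it, a choice made after the data were seen, the shares were 21.0% and 18.5%. Among the markers that chose the cells, *Top2a*, *Birc5* and *Ube2c* are genes of late phases, and the part of this choice in the shares was not tested. The 2 libraries did not differ in this share beyond their intervals.

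**Figure D3:**
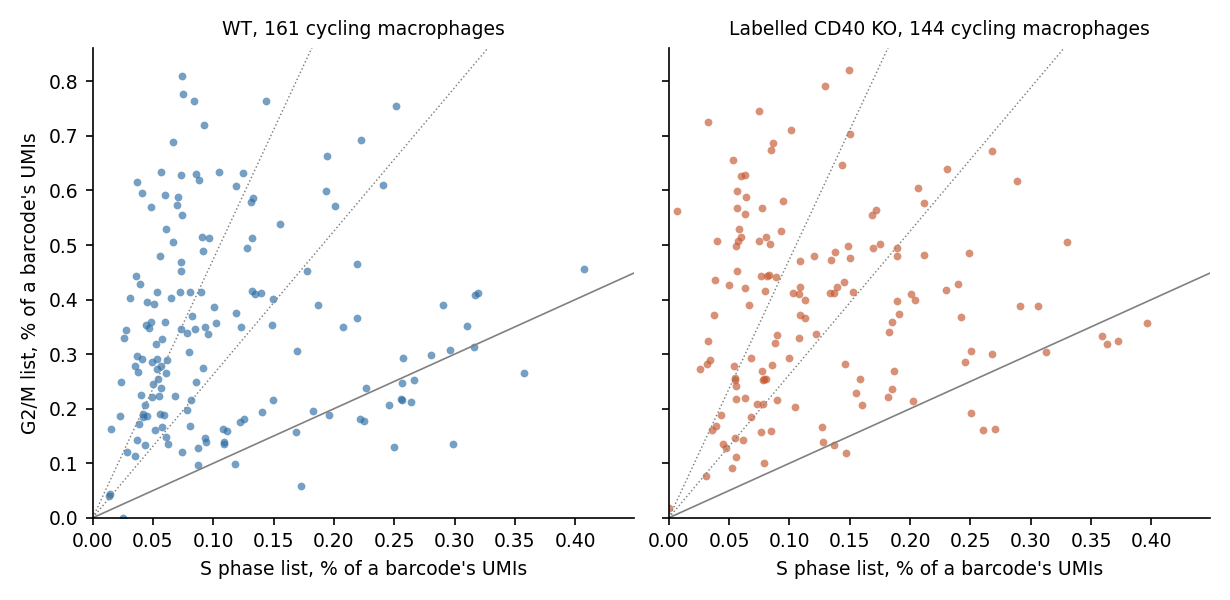
Each dot is 1 cycling macrophage (left WT, right the CD40 KO-labelled library), placed by the percent of its UMIs from the S phase list (x axis) and from the G2/M list (y axis). The solid line marks equal shares and the dotted lines mark S shares of 17.4% and 27.6% of both lists, the cuts used below. Most dots lie above the solid line in both libraries.

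To follow genes along the cycle, the members of both libraries together were split in 3 by the S share of the UMIs of these 2 lists, at 17.4% and 27.6%. This gave 59, 50 and 52 WT members, called G2/M-leaning, middle and S-leaning, and 43, 51 and 50 of the other library, with 37 and 31 members within 2 percentage points of a cut. These are ranges along a score, not cell types. Several genes in neither list varied along this order. *Ccne1*, the cyclin of S phase entry, stood at 38.8, 4.53 and 2.38 CPM in S-leaning, middle and G2/M-leaning members of WT, and at 51.6, 12.5 and 0.596 CPM in those of the CD40 KO-labelled library, the last from 1 UMI. *Mcm6* stood at 149, 38.5 and 28.6 CPM and at 186, 79 and 54.8 CPM, and *E2f1* at 61.3, 17.6 and 11.3 CPM and at 56.1, 19.2 and 11.3 CPM. *Pcna* fell less steeply, from 344 to 99.5 CPM and from 427 to 126 CPM.

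In the opposite direction, *Ccnb1* stood at 17.9, 53.2 and 125 CPM in S-leaning, middle and G2/M-leaning members of WT and at 37.9, 71.4 and 148 CPM in those of the other library. *Plk1* went from 12.1 to 66.1 CPM and from 16.7 to 76.9 CPM. Of the markers, *Ube2c*, the ubiquitin-conjugating enzyme of the anaphase-promoting complex, varied most, from 63.6 to 566 CPM and from 77.9 to 527 CPM. *Pclaf* ran the other way, from 307 to 182 CPM and from 365 to 221 CPM, and *Top2a*, which relieves DNA tangles, and *Mki67* varied less. *Ccnd1* was highest in the S-leaning members, at 138 against 84.6 CPM and 157 against 96.6 CPM, while the inhibitor *Cdkn2c* was highest in the G2/M-leaning ones, at 88.2 against 36.4 CPM and 82.9 against 35.9 CPM. The histone *Hist1h1b* was lowest in the G2/M-leaning members of both libraries, at 69.1 against 119 CPM in the middle ones of WT and 84.1 against 127 CPM. The replication histones did not share this order as a set: their sum, given further below, was lowest in the S-leaning members of both libraries. *Cdkn1a* varied less, from 357 to 298 CPM and from 342 to 246 CPM.

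**Figure D4:**
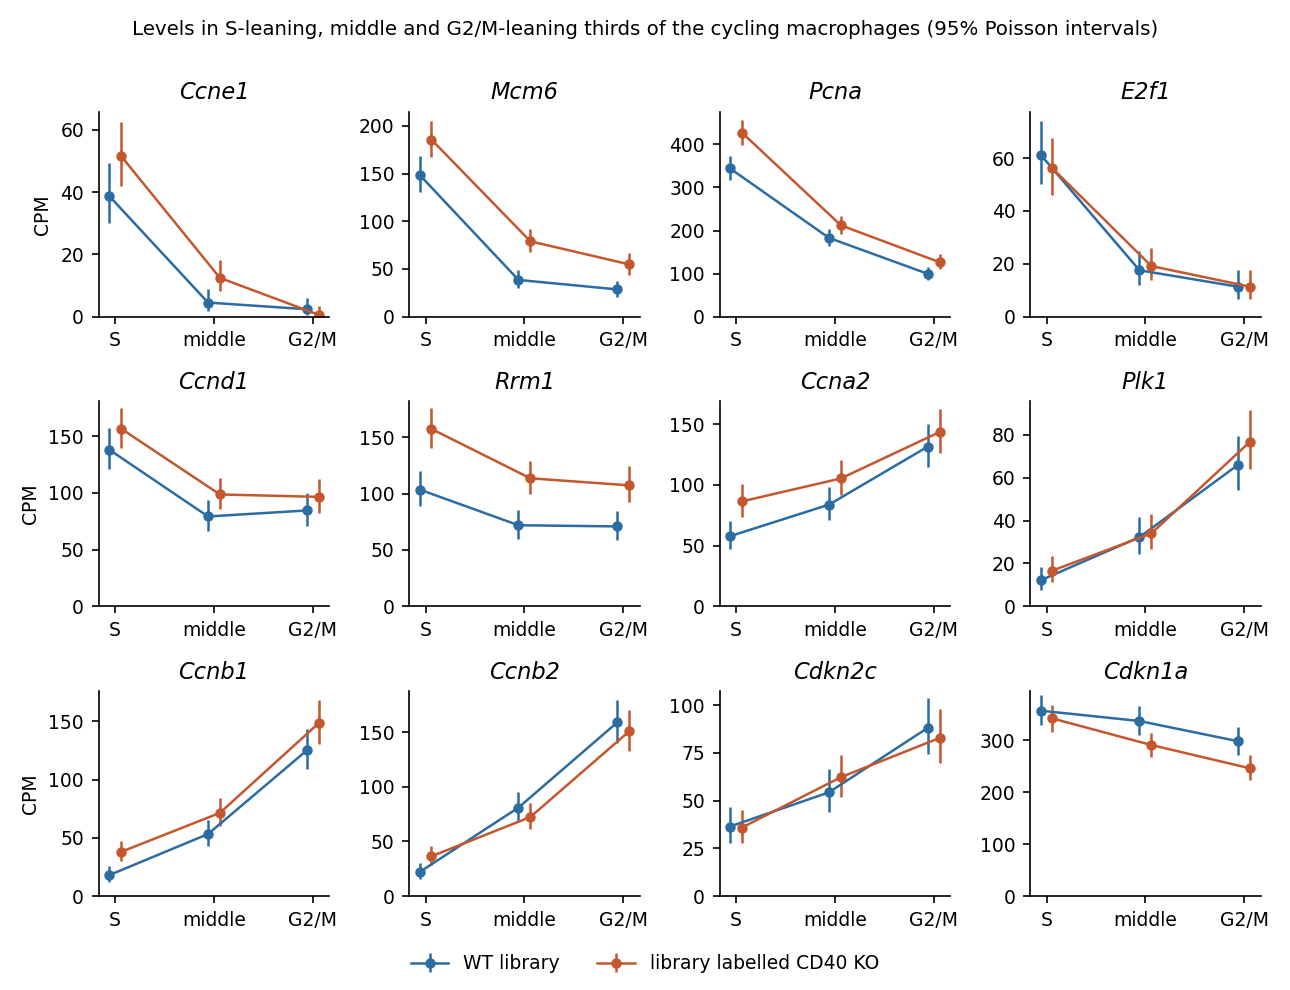
CPM (y axes, starting at 0, with 95% Poisson intervals) of 12 genes in S-leaning, middle and G2/M-leaning members of each library (x axis). None of these genes was used to order the members. *Ccne1*, *Mcm6*, *Pcna* and *E2f1* fall from left to right and *Ccna2*, *Plk1*, *Ccnb1* and *Ccnb2* rise in both libraries.

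Cycling macrophages made up 161 of 2983 macrophages in WT, or 5.40% (4.61 to 6.27), and 144 of 1868 in the CD40 KO-labelled library, or 7.71% (6.54 to 9.01). These intervals did not overlap. With every barcode thinned to 5000 UMIs before the limits were applied, the shares were 4.53% (3.47 to 5.81), or 59 of 1301, and 6.62% (5.01 to 8.55), or 54 of 816, and the intervals overlapped. Among barcodes of at least 20000 UMIs they were 10.6% (8.94 to 12.6) and 14.1% (11.9 to 16.6), and these intervals overlapped too. The share was thus higher in the CD40 KO-labelled library at each depth, and with 1 library per genotype neither value has an error between animals.

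Within the cycling macrophages 8019 genes with a mean of 10 CPM or more over both sums of members were compared between the libraries: 754 (9.40%) were at least 1.5-fold higher in the CD40 KO-labelled library and 381 (4.75%) at least 1.5-fold lower, with a median log2 ratio of 0.06. Of the calls 66.4% were higher, and with median-of-ratios scaling, which gave 609 and 503 genes, 54.8%. Of the same 8019 genes 591 were higher and 274 lower in other macrophages. The members summed to 5173213 (WT) and 5741962 UMIs, against 55594721 and 39748141 in other macrophages, so their ratios carry more counting error. The part of this in the counts was not tested. The 341 genes higher in both make up 45.2% of those higher in cycling and 57.7% of those higher in other macrophages, the 145 lower in both make up 38.1% and 52.9%, and 3 genes were opposite.

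*Areg*, the EGF family ligand amphiregulin, had the highest ratio among genes with a mean of 50 CPM or more. It stood at 13 CPM (10.04 to 16.4) in the cycling macrophages of WT and 93.3 CPM (85.6 to 102) in those of the CD40 KO-labelled library, a log2 ratio of 2.85 (2.48 to 3.24), and in other macrophages the ratio was 2.07. In WT 3 members held 47.8% of its UMIs, and without the 3 highest members of each library the ratio was 3.32. The metallothioneins *Mt1* and *Mt2*, which bind zinc and copper, stood at 240.3 and 29.4 CPM in WT and 806 and 146 CPM in the other library, and differed in the same direction in other macrophages (257 and 29.4 against 899.6 and 145 CPM). The chemokine *Cxcl3* stood at 82.5 and 284 CPM, *Ifi27l2a* at 415 and 1407 CPM and *Vegfa* at 43.9 and 132 CPM. The rest of the 12 highest were *Crip1* (1.62), the kinase *Grk5* (1.59), *Jdp2* (1.53), *Bola2* (1.47) and *Ndufa3* (1.47). *Mmp9*, gelatinase B, stood at 22.4 and 83.1 CPM, a ratio of 1.89 in cycling against 0.23 in other macrophages. For *Mmp9* 3 members held 56.2% of the UMIs in the CD40 KO-labelled library, and without the 3 highest members of each library the ratio was 1.24. In that library 5 members, described under other observations, held 311 of the 477 *Mmp9* UMIs. Any *Mmp9* UMI was seen in 21.1% of the WT members and 22.9% of those of the other library, so the ratio rests on few barcodes.

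Genes of lipid-associated macrophages were lower in the cycling macrophages of the CD40 KO-labelled library: 15 of 18 were at least 1.5-fold lower and none was higher, with a median of −0.81, against −1.06 in other macrophages. After thinning to 5000 UMIs with the limits applied anew, which left 59 and 54 members, the median in cycling macrophages was −0.33, under the fold. *Apoe* then stood at −0.55. The set of members changed, so these values do not show the effect of depth on the same cells. *Fabp4* fell from 201 CPM (WT) to 43.2 CPM, *Fabp5* from 3543 to 1076, *Gpnmb* from 404 to 155, *Spp1*, osteopontin, from 6859.9 to 3783, *Apoe* from 5979 to 2598, and the receptor *Trem2* from 560.2 to 325. *Cd9* had a ratio of −0.13. Of 31 lysosomal genes 11 were lower and 1 was higher. The factor *Klf2* stood at 721 and 292 CPM, and 9 of 19 immediate early genes were lower and 1 was higher, with a median of −0.58 against −0.28 in other macrophages. *S100a9*, which the rule limits, was among the 12 lowest at −1.36, and its ratio turned to 0.75 when the neutrophil limit was set to 0.05%. The rest of the 12 lowest were *Syngr1* (−1.63), *Arf5* (−1.52), *Grik3* (−1.50), the growth factor *Igf1* (−1.28), *Creg1* (−1.24) and a ferritin pseudogene, whose reads cannot be told from those of its parent gene. Of the Met subset 6 of 8 genes were higher, with a median of 1.0 against 1.31 in other macrophages.

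Of 292 cell cycle genes compared between the libraries within the members, 46 were at least 1.5-fold higher in the CD40 KO-labelled library. Another 3 were lower and 243 lay between. The part that was higher exceeded the 9.40% of all genes, and the part that was lower was under their 4.75%. Members of both libraries had passed the same limit on 5 of these genes, so this comparison is not independent of the selection. Of the spindle and kinetochore genes 1 of 26 and 3 of 24 were higher, with medians of 0.07 and 0.20 against 0.06 for all genes, and of the licensing genes 3 of 16, with a median of 0.22. In other macrophages, which hold the barcodes below the marker limit, the same spindle genes had a median of 0.59. Of the replication histones 13 of 17 were higher, with a median of 0.92, and 1.21 in other macrophages. *Hist1h2ap* stood at 14.9 CPM (11.7 to 18.6) in the WT members and 59.6 CPM (53.4 to 66.2) in those of the CD40 KO-labelled library, *Hist1h2ae* at 47.7 and 129, *Hist1h4d* at 44.7 and 84.5 and *Hist2h2ac* at 13.3 and 35.4 CPM, while *Hist1h1b* had a ratio of 0.21 (0.04 to 0.38). The ratio held within the S-leaning, middle and G2/M-leaning members: the summed list was 499.8 against 935 CPM, 702 against 1351 CPM and 701 against 1213 CPM. In ribosome biogenesis 6 of 19 genes were higher and none lower, with a median of 0.42 in cycling and −0.09 in other macrophages.

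**Figure D5:**
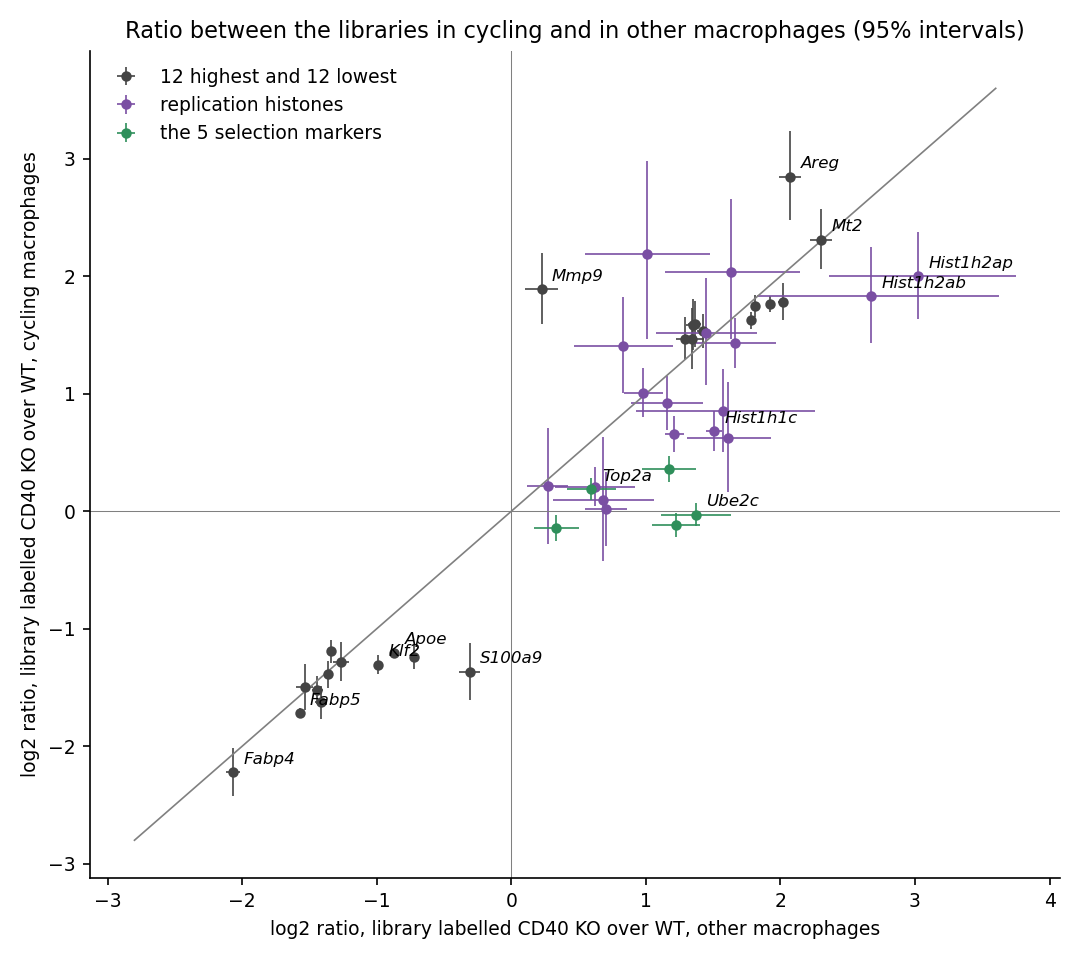
Log2 ratio of CPM between the CD40 KO-labelled library and WT in other macrophages (x axis) and in cycling macrophages (y axis), with 95% intervals, for the 12 highest and 12 lowest named genes (grey), the replication histones compared (purple) and the 5 selection markers (green). Most grey points lie near the line of equal ratios. *Mmp9* (1.89 and 0.23), with 56.2% of its UMIs in 3 members of the CD40 KO-labelled library, lies above it. The markers lie below it, and the rule held members of both libraries to the same limit on their sum, so their place is not independent of the selection.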

How the data were processed

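UMI counts per gene and barcode were used as the authors deposited them, in 1 filtered matrix per library, and per the file headers these were produced by Cell Ranger 7.0.1. STAR and the mm10 build appear in the submitters' processing notes, and a Chromium 3′ v3 kit in the labels' protocols. The sources used here do not say whether intron reads were counted.

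The libraries held 139343516 UMIs in 10624 barcodes (WT) and 90057108 in 8146 (labelled CD40 KO). Members were found by the limits given above, UMIs were summed over barcodes of a class, and sums were scaled to 1e+06 (CPM). Cells are not replicates, so no test was run. Intervals are exact (Poisson for CPM, conditional binomial for ratios, Clopper-Pearson for shares), at 95%, and cover counting error only. A limit for a share of 0 is 3 counts of the total. No doublets were removed in the values reported. Scrublet scores served as an alternative, removing 903 and 531 barcodes of highest score.

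The members, gene lists and comparisons were chosen with earlier results of these data known. Named genes are the 5 markers, *Cd40*, members of the role lists (at least the 2 highest and 2 lowest measured WT ratios of each cell cycle list), the defining genes of the state lists, and in each comparison the genes of the 12 largest and 12 smallest ratios among those averaging 50 CPM or more, without sex-linked, mitochondrial, ribosomal protein, haemoglobin, immunoglobulin and unnamed genes. For cycling against other macrophages, genes were ranked by the smaller of the ratios of both libraries. *Diaph3*, *Pbk*, *Shcbp1*, *Cx3cr1*, *Fcrls*, *Mgl2*, *Cxcl10* and *Ctsk* were picked after their values were seen. Promoters came from a RefSeq table of build GRCm38.p6 and were matched by symbol, for 90 of 108 G2 and mitosis genes and 53 of 69 replication genes.

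Alternatives changed the marker, depth, *Malat1* and neutrophil limits, the markers, the scaling, the weighting of barcodes, the floor and the fold. A further alternative thinned each barcode to 5000 UMIs before the limits were applied, which left 59 and 54 members. The gene numbers and the S against G2/M shares after thinning instead kept the original members. Work was done in Python 3.11.15 with scanpy 1.11.5, scipy 1.17.1, scikit-learn 1.9.0, numpy 2.4.6, matplotlib 3.10.9 and pandas 2.3.3. Only the ratio and its interval were tested on simulated counts.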

Additional observations from a re-analysis of the deposited data

Results flagged for a closer look

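Barcodes outside the rule also carried the 5 markers at 0.05% of UMIs or more. Of the barcodes that failed only the *Malat1* limit, 167 of 1297 in WT (12.9%, 11.1 to 14.8) and 124 of 930 in the CD40 KO-labelled library (13.3%, 11.2 to 15.7) did so, numbers close to those of the members themselves. These values drew notice because they lie in barcodes that no comparison above used. They also exceed the shares in the neutrophil barcodes, which are shallower. By bands of the *Malat1* share (under 0.1%, 0.1% to 0.2%, 0.2% to 0.4%, 0.4% to 0.8%, 0.8% to 1.6%, and 1.6% or more), the share past the marker limit was 12.2%, 12.4%, 13.1%, 6.90%, 3.78% and 0.885% in WT and 9.59%, 13.04%, 13.9%, 10.6%, 5.11% and 3.33% in the other library. The reason for this gradient was not tested.

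Of barcodes with under 2 *Csf1r* UMIs that met every other limit, 33 of 1333 in WT (2.48%) and 32 of 629 in the CD40 KO-labelled library (5.09%) passed the marker limit. Of those over the neutrophil limit alone, 21 of 382 (5.50%) and 6 of 121 (4.96%) passed it.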

How the results depend on the processing

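The share of cycling macrophages moved with the limits that define it, and was higher in the CD40 KO-labelled library than in WT under every alternative run. It was 3.39% (WT) and 5.14% (CD40 KO-labelled) at a marker limit of 0.1%, 6.84% and 11.9% at 0.03%, 4.09% and 6.10% without *Top2a* and *Mki67*, 7.66% and 9.58% without the *Malat1* limit, and 4.53% in WT after thinning. Genes lower in cycling macrophages, 77 as reported, numbered 169 at the 0.1% limit, 47 at 0.03%, 326 after thinning, 139 without the highest doublet scores and 137 as a mean over barcodes. A floor of 50 CPM left 126 higher and 32 lower, no floor gave 1941 and 2454, and a 2-fold limit 276 and 9. Between the libraries, genes higher and lower within the members numbered 1728 and 1519 after thinning, 270 and 134 at a floor of 50 CPM, 5451 and 2852 with no floor, and 190 and 68 at 2-fold. With S-rich and G2/M-rich members at equal weight 603 were lower. Of the calls for cycling macrophages 87.1% were higher, 69.5% after thinning; between the libraries thinning gave 53.2%. The share of members with more S than G2/M UMIs was 21.0% and 18.5% without *Hmgb2*, an alternative chosen after seeing the data. With a neutrophil limit of 0.05%, the ratio of *S100a9* between the libraries turned to 0.75 and the median of the neutrophil list, cycling against other macrophages of the CD40 KO-labelled library, to 0.044; no other named gene or list median of those tried changed sign while past the fold. The causes were not tested. Counts after thinning rest on 59 and 54 members, chosen anew after it, and include genes seen through few UMIs. No paired analysis was possible because each genotype has 1 library, and for the same reason no replicate could be left out. Depth limits genes under about 10 CPM, where a sum over the members holds few UMIs.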

Other observations

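A few dividing cells of the CD40 KO-labelled library carried some genes known from osteoclasts and other matrix-degrading macrophages. In 5 of its 144 cycling macrophages (3.47%) at least 20 UMIs each of *Ctsk*, cathepsin K, and of *Mmp9* were counted. These 5, of a median of 55474 UMIs, held 521 of the 624 *Ctsk* UMIs and 311 of the 477 *Mmp9* UMIs of all members of that library, with 247 UMIs of *Acp5*, 166 of the proton pump gene *Atp6v0d2* 88 of *Myo10* and 145 of *Nfatc1*. Other osteoclast genes were at or near 0 in them, with 0 UMIs of *Itgb3* and *Oscar*, 7 of *Ocstamp* and 9 of *Dcstamp*. None of the 161 WT members met this limit, and 2 of 2822 and 1 of 1724 other macrophages did. The limit is a raw count, which deep barcodes reach more easily. Median depth was 28601 UMIs in WT members and 15789.5 and 17616 in the other macrophages. The part of depth in this contrast was not tested. The pattern was noticed in the data and rests on 5 barcodes of 1 library.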
